A study of Mus musculus with 16 samples.

Results

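The S100 calcium-binding protein genes followed here are *S100a7a*, *S100a8*, *S100a9*, *S100a4*, *S100a6*, *S100a10*, *S100a11*, *S100a14* and *S100a16*, which were chosen by their symbols and make up 9 of the 55359 genes counted in each mouse. S100 proteins are small proteins that bind calcium through a pair of EF-hand motifs and mostly act as dimers. Inside the cell they attach to target proteins such as annexins and cytoskeletal proteins, and several are released, where they can be recognized by receptors such as *Ager* (the receptor RAGE) and *Tlr4*. In skin, S100A8 and S100A9 are abundant in neutrophils and are also made by keratinocytes after injury, while S100A14 and S100A16 are known mainly from epithelial cells.

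RNA was measured in whole dorsal skin of WT C57Bl/6 mice (C57Bl/6N in the study's text) aged 8 weeks, taken in telogen, when hair follicles rest. There were 4 UVB males, 4 no-UVB males, 4 UVB females and 4 no-UVB females, each mouse giving 1 library. The UVB groups had received 3 exposures of the back to UVB light, spaced by alternate days, and per the study's text their skin was taken hours after the last exposure, while the no-UVB groups of the same age carried no irradiation. The design asks how the skin of each sex responds to UVB and whether the responses of the sexes differ. No label links mice to cages, litters or batches, so p-values measure the spread between these mice. Reads on genes numbered between 16495776 and 33404831 per mouse (median 21767339). Levels are given as CPM, the count of a gene relative to all reads on genes of its library after TMM scaling. "Rose", "fell" and "higher" are used of genes with a Benjamini-Hochberg adjusted p under 0.1 by edgeR's quasi-likelihood test over all genes, and a stricter call also asks for a log2 fold change past 1. Most log2 fold changes of the members, and some of other genes, are given with a standard error (SE). The SE is the size of the log2 fold change divided by the square root of the F statistic of that test. The tissue is a mixture, so more cells of a type and more RNA per cell cannot be told apart.

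All 9 genes lie on chromosome 3 (GRCm39), inside the region known as the epidermal differentiation complex. *S100a14*, *S100a16*, *S100a4*, *S100a6*, *S100a7a*, *S100a8* and *S100a9* stand in that order within 169.0 kb (90434082 to 90603071), and *S100a11* and *S100a10* share a second stretch of 60.1 kb (93414382 to 93474510) that begins 2.81 Mb further on. *S100a9* is the only member on the minus strand, so that it and its neighbour *S100a8* are transcribed towards each other. The canonical transcript has 3 exons in each member except *S100a14*, which has 4. *S100a4* shares 302 exon bases on the same strand with the gene model *Gm42674*, and STAR counts reads in these bases for neither gene. No other member shares exon bases with another gene.

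The promoters of the 5 members that rose after UVB in males are shown, *S100a7a*, *S100a4*, *S100a6* and *S100a10* being left out. Each is the 250 bases of GRCm39 that end just before the first base of the canonical transcript in GENCODE M39, written 5′ to 3′ on the strand of the gene. Capitals mark matches to the motifs searched, TGANTCA for AP-1, TTGCNNAA for C/EBP, TTCNNNGAA for STAT (each on both strands) and TATAAA for the TATA box (on the strand of the gene only), with N for any base.
S100a8, chr3:90576035-90576284, plus strand: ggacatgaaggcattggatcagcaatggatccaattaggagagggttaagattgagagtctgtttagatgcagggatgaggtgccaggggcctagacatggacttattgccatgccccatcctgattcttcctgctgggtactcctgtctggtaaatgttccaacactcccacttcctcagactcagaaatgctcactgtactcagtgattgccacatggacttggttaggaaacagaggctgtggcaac
S100a9, chr3:90603072-90603321, minus strand: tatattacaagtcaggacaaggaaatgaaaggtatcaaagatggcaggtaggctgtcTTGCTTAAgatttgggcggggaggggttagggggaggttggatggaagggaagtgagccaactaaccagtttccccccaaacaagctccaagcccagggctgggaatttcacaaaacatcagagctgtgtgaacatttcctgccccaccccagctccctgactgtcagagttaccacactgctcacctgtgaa
S100a14, chr3:90433832-90434081, plus strand: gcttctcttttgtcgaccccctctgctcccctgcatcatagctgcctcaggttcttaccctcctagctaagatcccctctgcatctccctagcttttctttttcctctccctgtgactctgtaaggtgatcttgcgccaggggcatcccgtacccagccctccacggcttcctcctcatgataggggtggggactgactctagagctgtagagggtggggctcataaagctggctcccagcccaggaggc
S100a16, chr3:90444288-90444537, plus strand: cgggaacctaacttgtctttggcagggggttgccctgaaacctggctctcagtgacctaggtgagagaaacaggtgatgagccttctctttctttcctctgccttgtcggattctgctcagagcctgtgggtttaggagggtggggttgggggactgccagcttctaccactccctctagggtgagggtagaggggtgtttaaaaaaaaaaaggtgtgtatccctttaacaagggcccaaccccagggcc
S100a11, chr3:93427427-93427676, plus strand: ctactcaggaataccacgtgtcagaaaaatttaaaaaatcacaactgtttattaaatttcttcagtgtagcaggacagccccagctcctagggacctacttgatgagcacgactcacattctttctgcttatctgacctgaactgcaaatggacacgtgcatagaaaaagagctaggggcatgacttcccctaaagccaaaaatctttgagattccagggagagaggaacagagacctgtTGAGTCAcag
Matches were few. The promoter of *S100a9* held TTGCTTAA, a C/EBP match that begins 193 bases before the start, and that of *S100a11* held TGAGTCA, an AP-1 match that begins 10 bases before it. The windows of *S100a8*, *S100a14* and *S100a16* held none of the 4 motifs. Of the other members, *S100a7a* held the STAT match TTCCAGGAA 169 bases before its start and *S100a4* held TATAAA 29 bases before it, while *S100a6* and *S100a10* held none. Each motif was thus found in 1 of 9 members, where 6.19% of the windows of 21627 protein-coding genes held AP-1, 9.37% C/EBP, 7.73% STAT and 8.06% the TATA box. A match is a run of letters and no measured binding site.

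Before any irradiation the members covered a wide range of levels. Per kilobase of the canonical transcript, *S100a6* was the highest in no-UVB males at 326.5 ± 57.3 CPM per kb (SD, n = 4), followed by *S100a14* at 225.5 ± 31.1, *S100a16* at 139.2 ± 13.8, *S100a10* at 84.3 ± 11.9, *S100a11* at 62.7 ± 5.26 and *S100a4* at 28.0 ± 5.76. *S100a8* (4.24 ± 1.40 CPM per kb), *S100a9* (3.01 ± 0.55) and *S100a7a* (0.44 ± 0.12) stood far below them. The ranges of *S100a10* and *S100a11* overlapped, as did those of *S100a8* and *S100a9*, and the other neighbours in this order were apart. No-UVB females had the same order with the same overlaps. After UVB the top place went to *S100a14*, at 499.1 ± 14.1 CPM per kb in males and 373.8 ± 25.5 in females, where its range overlapped with that of *S100a6*. *S100a9* reached 69.6 ± 46.9 CPM per kb in UVB males, with a range that overlapped with that of *S100a10*, and 14.4 ± 2.47 in UVB females, still below *S100a4*. The order depends on which exons a gene uses: with the length of all annotated exons *S100a14* was first in all 4 groups, overlapping with *S100a6* in no-UVB males, and *S100a11* stood ahead of *S100a16*. Together the 9 genes took 0.108 ± 0.011% of the gene reads of no-UVB males, 0.162 ± 0.010% of UVB males, 0.109 ± 0.011% of no-UVB females and 0.133 ± 0.003% of UVB females (SD, n = 4).

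**Figure D1:**
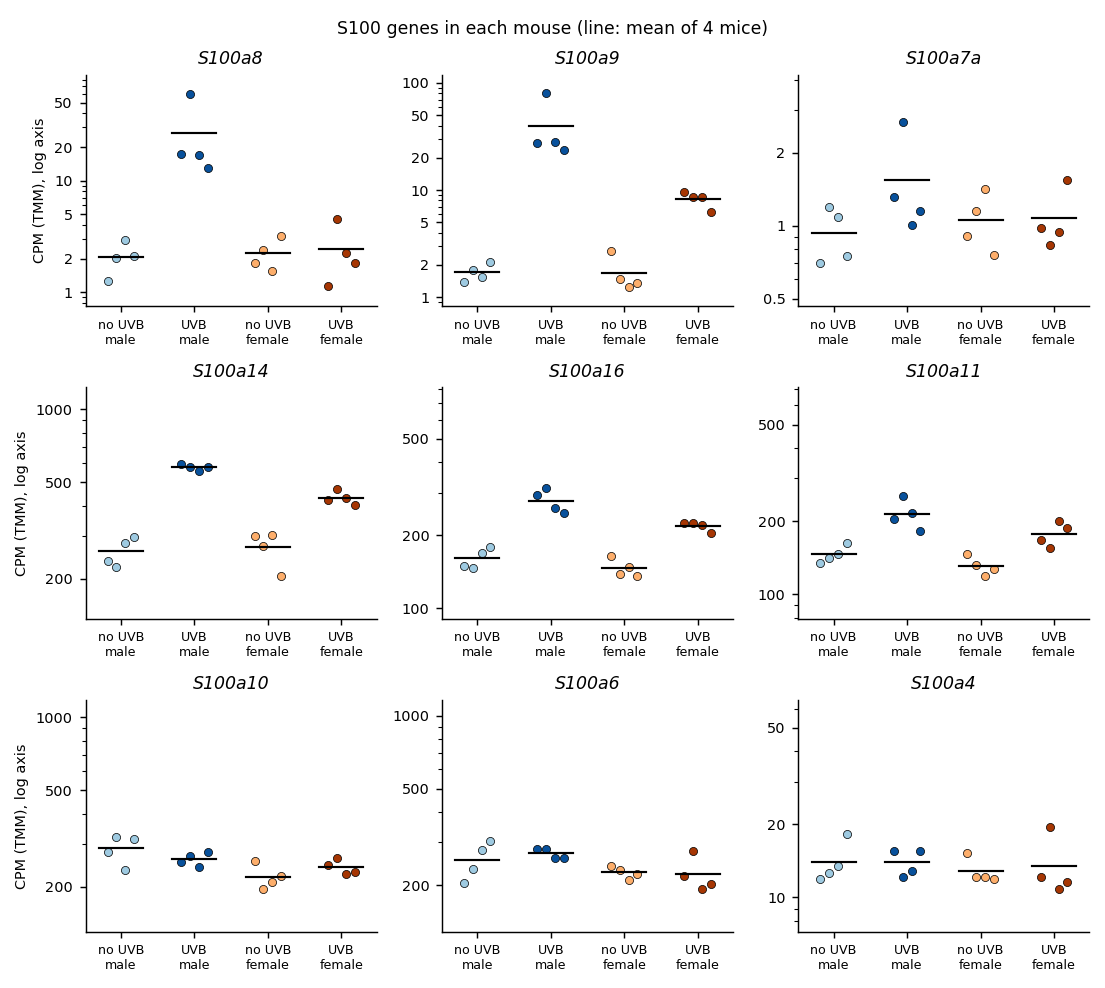
Level of each S100 gene in each of the 16 mice, as TMM-scaled CPM on a log axis that differs between panels; points are mice in replicate order and lines are means of 4. *S100a8* and *S100a9* of UVB males run from 12.9 to 59.5 and from 23.7 to 79.9 CPM, above every other mouse, and *S100a10*, *S100a6* and *S100a4* overlap between irradiated and control mice.

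In males, 5 of the 9 genes rose after UVB by edgeR, and DESeq2's Wald test, which called 28.7% of all genes higher, called 6, with *S100a7a* at an adjusted p of 0.0977. None fell by edgeR, by DESeq2 or at an unadjusted p under 0.05. *S100a9* rose 23.5-fold and *S100a8* 12.7-fold, *S100a14* rose 2.25-fold, *S100a16* 1.75-fold and *S100a11* 1.49-fold. Over all genes tested, 29.0% rose and 30.5% fell in males, and the count of 5 of 9 is to be read against that share. *S100a8*, *S100a9* and *S100a14* were also past the stricter call, which 4.08% of all genes passed upwards. Members not called by edgeR were *S100a7a*, *S100a6*, *S100a4* and *S100a10*.

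In females, 4 of the 9 genes rose, against 12.8% of all genes. None fell by edgeR, by DESeq2 or at an unadjusted p under 0.05, against 10.6% of all genes. These were *S100a9* (4.90-fold), *S100a14* (1.60-fold), *S100a16* (1.5-fold) and *S100a11* (1.36-fold), and *S100a9* alone passed the stricter call, which 1.63% of all genes passed upwards. *S100a8* was not called in females. The median log2 fold change of the 9 members was 0.69 in males and 0.17 in females, where the median of all genes was -0.02 and 0.00.

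*S100a9* encodes the larger partner of calprotectin, the S100A8/S100A9 dimer that binds zinc and manganese and so withholds them from microbes. In no-UVB males its level was 1.40, 1.80, 1.56 and 2.12 CPM in the 4 mice, and in UVB males 27.8, 79.9, 27.9 and 23.7 CPM. In no-UVB females it was 2.73, 1.47, 1.24 and 1.36 CPM, and in UVB females 9.52, 8.62, 8.66 and 6.23 CPM. No irradiated mouse overlapped with the control mice of its sex, and every UVB male was above every UVB female. The log2 fold change was 4.55 (SE 0.54, adjusted p = 0.000385) in males and 2.29 (SE 0.24, adjusted p = 0.00033) in females.

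*S100a8* encodes the other partner of calprotectin. Its level was 1.26, 2.03, 2.95 and 2.12 CPM in no-UVB males and 17.2, 59.5, 17.1 and 12.9 CPM in UVB males. In no-UVB females it was 1.82, 2.38, 1.54 and 3.18 CPM, and in UVB females 1.13, 4.51, 2.23 and 1.81 CPM. The irradiated males stood apart from all other mice, while the ranges of irradiated and control females overlapped. The log2 fold change was 3.67 (SE 0.64, adjusted p = 0.00244) in males and 0.17 (SE 0.39, adjusted p = 0.812) in females.

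A single male, replicate 2 of the UVB group, had the highest *S100a8* and *S100a9* of all mice. Without it the log2 fold change in males was 2.93 for *S100a8* and 3.98 for *S100a9*, and both were still called. Among UVB females, replicate 2 had the highest *S100a8*, and without it the estimate in females turned to -0.34 and was not called. The same female had 26 reads of *Ngp*, a neutrophil granule gene that had at most 1 read in each of the other 15 mice. Of the 11 neutrophil genes followed, 6 (*Ngp*, *Csf3r*, *Retnlg*, *Clec4d*, *Camp* and *Mmp8*) were at their highest among UVB females in this mouse. Without *Il1r2*, which was left out after its values were seen, the list summed to 19.9 CPM there, against 13.3, 13.6 and 14 in the other UVB females, while with *Il1r2* it summed to 68.1 CPM, the lowest of the 4, and the part of neutrophils in its *S100a8* was not tested.

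*S100a14* and *S100a16* encode S100 proteins best known from epithelia, where S100A14 has been linked to cell adhesion and migration. *S100a14* was at 237.2, 223.0, 282.1 and 298.6 CPM in no-UVB males and at 595.1, 577.5, 555.4 and 576.0 CPM in UVB males. In females it was at 300.9, 273.3, 303.2 and 205.3 CPM without UVB and at 421.3, 471.4, 431.0 and 401.6 CPM after it. Neither sex showed an overlap, and the log2 fold change was 1.17 (SE 0.09, adjusted p = 3.33e-06) in males and 0.68 (SE 0.13, adjusted p = 0.00578) in females. *S100a16* went from between 146.9 and 179.6 CPM to between 246.6 and 314.3 CPM in males and from between 135.7 and 164.3 CPM to between 205.0 and 224.6 CPM in females. Its log2 fold change was 0.81 (SE 0.09, adjusted p = 3.66e-05) in males and 0.58 (SE 0.08, adjusted p = 0.00124) in females.

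*S100a11*, whose product binds annexin A1 and is a component of the cornified envelope, rose by less. Its level was 134.0 to 162.7 CPM in no-UVB males and 182.3 to 253.0 CPM in UVB males, a log2 fold change of 0.57 (SE 0.10, adjusted p = 0.000588). In females it went from between 118.7 and 146.5 CPM to between 154.4 and 199.8 CPM, a log2 fold change of 0.45 (SE 0.10, adjusted p = 0.0133). As with *S100a14* and *S100a16*, the control and irradiated mice of each sex did not overlap. Over all genes tested, 22.9% in males and 11.1% in females had every irradiated mouse above every control mouse of the sex.

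*S100a7a*, a mouse relative of the gene for human psoriasin, was the least abundant member, with 13 to 43 reads per mouse. It was at 0.70, 1.2, 1.08 and 0.75 CPM in no-UVB males and at 1.31, 2.68, 1.0 and 1.15 CPM in UVB males, and the groups overlapped. The log2 fold change of 0.69 (SE 0.33) in males had an adjusted p of 0.104, just over the threshold, and 7 of the 9 alternatives that kept every mouse brought it under 0.1. Without UVB male replicate 2 the estimate was 0.33, with an adjusted p of 0.329. In females the log2 fold change was -0.003 (SE 0.26, adjusted p = 0.996), with 0.76 to 1.41 CPM without UVB and 0.83 to 1.53 CPM after it.

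*S100a4*, *S100a6* and *S100a10* were not called in either sex. S100A10 differs from its relatives in that it does not bind calcium, and it forms a complex with annexin A2 at the cell membrane. *S100a10* was at 234.4 to 322.5 CPM in no-UVB males and 241.9 to 278.0 CPM in UVB males (log2 fold change -0.13, SE 0.09, adjusted p = 0.276), and at 196.1 to 254.8 and 226.3 to 262.8 CPM in the corresponding females (0.14, SE 0.10, adjusted p = 0.366). In males the adjusted p of *S100a10* was 0.0411 at -0.20 without no-UVB male replicate 3 and 0.0845 at -0.20 with upper quartile scaling. *S100a6*, which encodes calcyclin, had log2 fold changes of 0.11 (SE 0.11, adjusted p = 0.435) in males and -0.01 (SE 0.12, adjusted p = 0.964) in females. It lay between 204.2 and 303.7 CPM in no-UVB males and between 258.2 and 282.2 CPM in UVB males, and between 209.6 and 239.1 CPM and between 192.7 and 277.3 CPM in the corresponding females. *S100a4*, whose product binds non-muscle myosin and is common in fibroblasts and leukocytes, lay between 10.8 and 19.6 CPM in all 16 mice, with log2 fold changes of 0.03 (SE 0.14, adjusted p = 0.873) in males and 0.09 (SE 0.19, adjusted p = 0.784) in females. The sign of this value in males turned with upper quartile scaling.

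**Figure D2:**
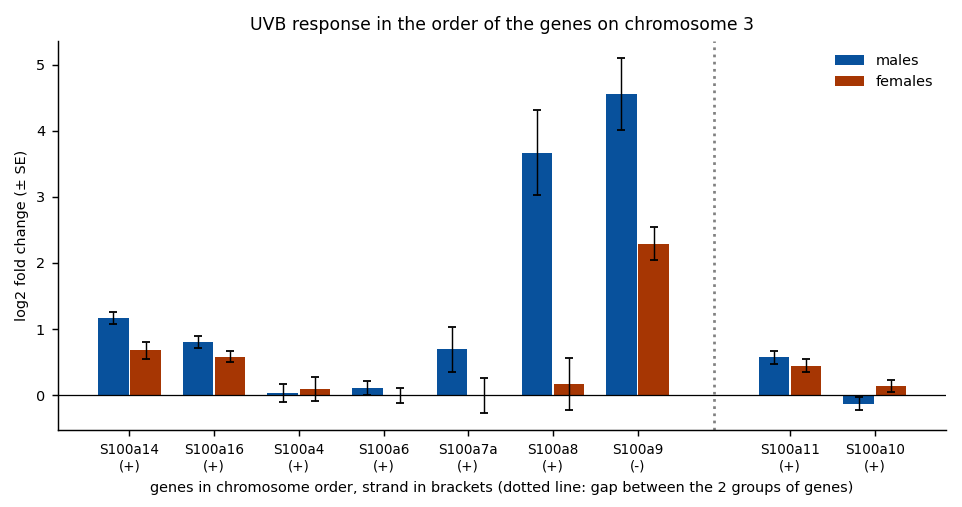
Log2 fold change of each S100 gene after UVB in males and in females, with its SE, in the order of the genes along chromosome 3; the strand is in brackets and the dotted line stands for the gap of 2.81 Mb. In males the largest values are those of the neighbours *S100a9* (4.55) and *S100a8* (3.67), and in females those of *S100a9* (2.29) and *S100a14* (0.68), with *S100a8* at 0.17, while *S100a4* and *S100a6*, in the same stretch, lie between -0.01 and 0.11.

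How far the responses of the sexes differed, tested as the interaction of UVB and sex over all 16 mice, was called for *S100a8* and *S100a9*. The response of *S100a8* was larger in males by 3.47 on the log2 scale (SE 0.77, adjusted p = 0.0333) and that of *S100a9* by 2.24 (SE 0.59, adjusted p = 0.0545). Of all genes tested, 2.75% had a response called higher in males and 4.25% lower. The call of *S100a8* held in every one of the 16 fits that left out 1 mouse, with estimates from 2.73, without UVB male replicate 2, to 3.98. That of *S100a9* did not: the adjusted p was 0.118 without no-UVB female replicate 1, 0.105 without no-UVB male replicate 1 and 0.110 without no-UVB male replicate 2, with estimates of 1.93, 2.16 and 2.27. It was also lost with genes of at least 1 count (adjusted p = 0.147). *S100a14* differed by 0.47 (SE 0.16) and was not called at an adjusted p of 0.112, although DESeq2's Wald test gave 0.0367 for it. In all, 3 of the 7 alternatives that kept every mouse and 3 of the 16 fits that left out 1 mouse called it. For *S100a16* (0.21, SE 0.13, adjusted p = 0.346), *S100a11* (0.11, SE 0.14, adjusted p = 0.696), *S100a7a* (0.69, SE 0.45, adjusted p = 0.403), *S100a6* (0.10), *S100a4* (-0.08) and *S100a10* (-0.28, SE 0.14, adjusted p = 0.266) a difference was not shown.

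Without UVB the sexes differed in 1 member. *S100a10* was higher in males by 0.39 on the log2 scale (SE 0.10, adjusted p = 0.0259), although the ranges of 234.4 to 322.5 CPM in males and 196.1 to 254.8 CPM in females overlapped. No member was higher in females, by edgeR, by DESeq2 or at an unadjusted p under 0.05, and over all genes 7.21% were higher in males and 4.58% in females. *S100a8* (-0.06, SE 0.58) and *S100a9* (0.02, SE 0.48) had nearly equal levels in the unirradiated sexes.

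After UVB, 5 members were higher in males and none in females (by edgeR, by DESeq2 or at an unadjusted p under 0.05), against 12.8% of all genes higher in males and 12.5% in females. The log2 differences were 3.40 for *S100a8* (SE 0.51, adjusted p = 0.000939), 2.26 for *S100a9* (SE 0.34, adjusted p = 0.000939), 0.42 for *S100a14* (SE 0.11, adjusted p = 0.0202), 0.35 for *S100a16* (SE 0.09, adjusted p = 0.0146) and 0.27 for *S100a11* (SE 0.10, adjusted p = 0.0795). Without UVB male replicate 2 the difference was 2.66 for *S100a8* and 1.68 for *S100a9*, and both were still called. For *S100a8*, *S100a9*, *S100a14* and *S100a16* every UVB male was above every UVB female, which held for 11.5% of all genes tested. The ranges of *S100a11* overlapped, and its call was lost in 5 of the 8 fits that left out 1 mouse, with adjusted p of 0.203 and 0.207 without UVB female replicates 1 and 2 and of 0.111, 0.256 and 0.138 without UVB male replicates 1, 2 and 3. It was also lost with upper quartile scaling (adjusted p = 0.125) and with genes of at least 1 count (0.104). *S100a6* missed the threshold (0.28, SE 0.12, adjusted p = 0.116), although DESeq2's Wald test gave 0.0701 for it. By edgeR it was called with DESeq2 size factors (adjusted p = 0.0904). Of the 8 fits that left out 1 mouse, only that without UVB female replicate 2 called it (0.40, adjusted p = 0.0249).

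The partners of calprotectin did not move in step. Unirradiated skin held 27 to 68 reads of *S100a8* and 27 to 63 of *S100a9* per mouse, with ratios of 0.90, 1.13, 1.88 and 1.0 in males and 0.67, 1.61, 1.23 and 2.31 in females. In UVB males *S100a8* was 0.62, 0.74, 0.61 and 0.55 of *S100a9*, and in UVB females 0.12, 0.52, 0.26 and 0.29. Irradiated mice lay below the control mice of their sex without overlap, and UVB females below UVB males. The mean log2 ratio was 0.23 ± 0.47 in no-UVB males, -0.67 ± 0.18 in UVB males, 0.41 ± 0.75 in no-UVB females and -1.92 ± 0.87 in UVB females (SD, n = 4). In 3 comparisons by a two-sided exact permutation test, the difference was -0.90 for UVB in males, -2.33 for UVB in females and 1.25 for UVB males against UVB females, with p = 0.0286 and adjusted p = 0.0286 for each, the smallest p that 4 mice against 4 allow. Both members of this ratio also enter the comparisons above, so it is no separate evidence of them.

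**Figure D3:**
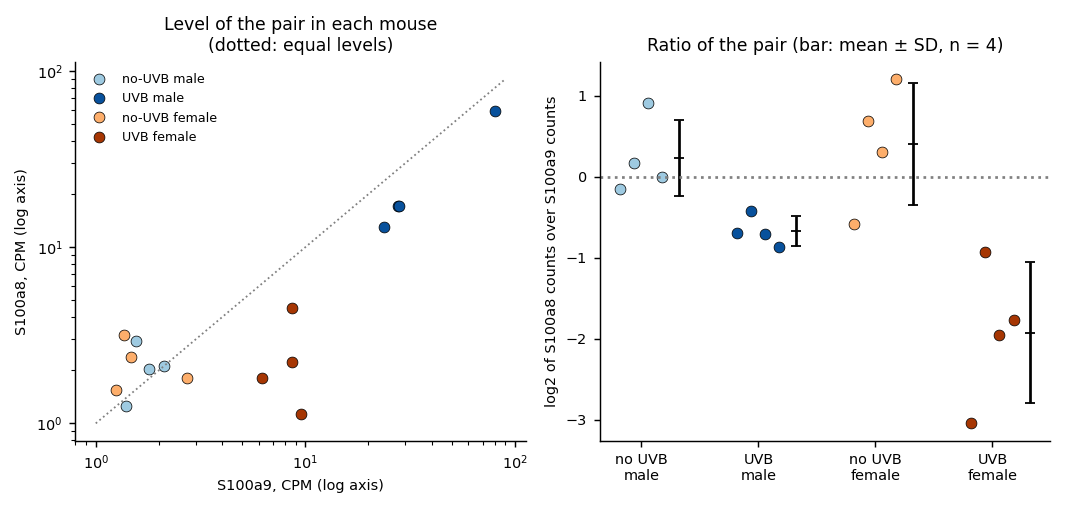
Left, CPM of *S100a8* against CPM of *S100a9* in each mouse, both on log axes, with a dotted line at equal levels; right, log2 of the ratio of their counts in each mouse, with the mean ± SD of 4 mice beside each group. UVB females lie furthest below the line, with log2 ratios from -3.04 to -0.93, and UVB males run from -0.87 to -0.43.

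Across the 16 mice, log2 CPM of *S100a9* followed that of *S100a16* with a Pearson r of 0.971, *S100a14* with 0.938, *S100a11* with 0.922 and *S100a8* with 0.825. *S100a4* and *S100a6* followed each other (r = 0.751), with r of 0.119 and 0.357 to *S100a9*. Among 15109 other genes with a mean of at least 1 CPM, those most like *S100a9* were *Fabp5* (r = 0.983), *Bbln* (0.983), *Gsto1* (0.983), *Chmp1a* (0.982) and *Ass1* (0.980). *Fabp5* encodes a fatty acid-binding protein of the epidermis, and its mean level was 267 CPM in no-UVB males, 984 in UVB males, 271 in no-UVB females and 513 in UVB females. Those most like *S100a6* were *Rpl22l1* (0.849), *1500009L16Rik* (0.838), *Akr1a1*, *Mfsd11* and *Hhipl1* (0.815 each). The points of each correlation share their 4 groups and their libraries, so r holds differences between groups as well as between mice, and no p is given.

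The family has further members in the genome. Of the other S100 genes listed, *S100a1*, *S100a13* and *S100b* were abundant enough to be tested. *S100b*, a marker of Schwann cells and melanocytes, fell in males from 3.68 to 5.76 CPM to 2.87 to 3.54 CPM (log2 fold change -0.48, SE 0.17, adjusted p = 0.0328) and had a log2 fold change of -0.01 in females. *S100a1* rose in females from 35.0 to 39.5 CPM to 39.2 to 55.5 CPM (0.31, SE 0.11, adjusted p = 0.0967), with -0.11 (adjusted p = 0.348) in males, and *S100a13* was not called in either sex. The exons of *S100a1* and *S100a13* overlap on opposite strands by 2563 bases, which the strand of the reads keeps apart. *S100a3*, *S100a5*, *S100g*, *S100z* and *S100a7l2* fell under the filter on low counts and were not tested.

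Known receptors and binding partners of S100 proteins were followed as a list of 16 genes, all of them tested. In males 3 rose and 4 fell, and in females 2 rose and none fell (1 at an unadjusted p under 0.05, 0 by DESeq2), with median log2 fold changes of -0.06 and 0.05 beside the -0.02 and 0.00 of all genes. As for each list that follows, these counts stand beside 29.0% of all genes that rose and 30.5% that fell in males, and 12.8% and 10.6% in females. *Ager* was at 1.57 ± 0.23 CPM in UVB males and 1.79 ± 0.21 in no-UVB males, and *Tlr4* at 21.2 ± 2.68 and 23.5 ± 2.68 CPM (SD, n = 4). Neither was called in males (log2 fold changes -0.15 and -0.13) or in females (0.20 and -0.26). *Cacybp*, which encodes a binding protein of calcyclin, rose in both sexes, by 0.39 (SE 0.06, adjusted p = 0.00032) in males and 0.37 (SE 0.10, adjusted p = 0.033) in females. *Myd88*, the adaptor of Toll-like receptors, and *Myh9*, a non-muscle myosin heavy chain, rose in males by 0.46 and 0.14, and *Bsg*, a receptor of S100A9, rose in females by 0.19. *Nptn*, *Cd36*, *Anxa2* and *Anxa6* fell in males, by 0.17, 0.22, 0.17 and 0.53 on the log2 scale. By edgeR's interaction test none of the 16 genes had a response that was called different between the sexes, while 2 (*Myd88* and *Myh9*, larger in males) had an unadjusted p under 0.05 (20.8% of all genes in either direction) and DESeq2 called 2 larger in males (7.33% of all genes, with 6.24% smaller).

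Cytokines and transcription factors known to act on *S100a8*, *S100a9* or *S100a7a* in epidermis formed a list of 18 genes, of which 14 were tested. In males 11 rose and 1 fell, and in females 8 rose and none fell (0 also at an unadjusted p under 0.05 and by DESeq2), with median log2 fold changes of 0.72 and 0.30. The interleukin-36 genes, whose products are epidermal alarm cytokines, rose most. *Il36a* rose by 5.78 (SE 0.44) in males and 3.81 (SE 0.39) in females, *Il36b* by 4.38 and 3.05, and *Il36g* by 3.02 and 2.36. *Il1b*, which encodes interleukin 1 beta, rose by 1.61 (adjusted p = 0.000127) in males and 1.03 (adjusted p = 0.0142) in females, and *Fosl1*, which encodes an AP-1 subunit, by 1.73 and 1.28. *Cebpd*, a C/EBP family gene, fell in males from 70.6 ± 38.7 to 24.5 ± 1.17 CPM (-1.50, SE 0.40, adjusted p = 0.0162) and had a log2 fold change of -0.11 in females. The response of *Stat3* was larger in males by 0.42 (SE 0.09, adjusted p = 0.0228), and it was the only gene of the list whose responses edgeR called different. At an unadjusted p under 0.05 the response of 5 genes was larger in males and that of 1, *Cebpd*, smaller, and DESeq2 called 4 larger and 0 smaller, against 20.8%, 7.33% and 6.24% of all genes. *Il22* had 0 counts in all 16 mice and *Il17a* at most 1 count.

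Markers of the cells that make S100A8 and S100A9 were set beside these results. Of 11 neutrophil genes, 7 were tested in males, of which 4 rose and 1 fell, and 5 in females, of which 2 rose and 1 fell. *Cxcr2*, a chemokine receptor, rose by 3.63 in males and 2.80 in females, and *Clec4d*, a lectin of myeloid cells, by 2.59 and 1.49. *Mmp8*, the collagenase of neutrophils, rose by 2.70 in males and was under the filter in females, and *Csf3r*, the receptor of the growth factor G-CSF, rose by 0.71 in males. *Ly6g*, the defining surface marker of mouse neutrophils, had 0 counts in all 8 irradiated mice and 1 count in 1 no-UVB female, and the granule gene *Ltf* had 1 to 16 counts per mouse. The study reports Ly6G-positive neutrophils in irradiated skin by flow cytometry on an earlier day, and reads that fit several places are not counted here. The counts of *Ly6g* therefore do not show that neutrophils were absent. The summed level of the list was 75.9 to 92.3 CPM in UVB males, 91.0 to 134.0 in no-UVB males, 68.1 to 76.6 in UVB females and 69.0 to 110.0 in no-UVB females. *Il1r2*, which made up most of this sum, fell by 0.79 in males and by 0.40 in females. The sum of the other 10 genes was 19.4 to 26.1 CPM in UVB males, 7.64 to 15.2 in no-UVB males, 13.3 to 19.9 in UVB females and 8.48 to 13.1 in no-UVB females. This sum was highest in UVB male replicate 2, where *Cxcr2*, *Csf3r*, *Mmp8* and *Clec4d* were at their highest among UVB males. *Retnlg* (0.957 CPM) and *Il1r2* (50.8 CPM) were at their lowest among UVB males in the same mouse. With *Il1r2* the list summed to 76.9 CPM there, against 75.9, 87.0 and 92.3 in the other UVB males. Replicates 1 and 4 each held the highest value of 3 of the 11 genes.

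The stress keratins *Krt6a*, *Krt6b* and *Krt16*, which keratinocytes make after injury, rose in both sexes. Their summed level was 101 to 164 CPM in no-UVB males, 2540 to 5150 in UVB males, 73.0 to 191 in no-UVB females and 220 to 710 in UVB females, with the highest value in UVB male replicate 2. *Krt6b* rose by 8.72 in males and 4.85 in females, *Krt16* by 6.11 and 2.97, and *Krt6a* by 3.63 and 1.14, and all 3 had a response called larger in males. *Krt6a* and *Krt6b* are near-identical copies, and reads that fit both are not visible in the deposited counts. *Krt1* rose by 3.13 in males and 1.99 in females, *Krt10* by 1.24 and 0.62, and *Krt14* by 1.43 and 0.47, while *Krt5* was not called in either sex.

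Of 8 monocyte and macrophage genes, 3 rose and 3 fell in males (29.0% and 30.5% of all genes) and 1 fell in females (10.6% of all genes), with a summed level of 759 to 939 CPM in UVB males, 915 to 1100 in no-UVB males, 710 to 984 in UVB females and 831 to 1350 in no-UVB females. All 5 fibroblast genes fell in males, among them *Col1a1* by 1.66 and *Col1a2* by 1.57, and their summed level was 76200 to 83400 CPM in no-UVB males, 26200 to 36500 in UVB males, 16600 to 18400 in no-UVB females and 9330 to 19600 in UVB females. Of the fibroblast genes, 1 fell in females. The muscle gene *Myh4* fell by 1.09 in males, as did the 2 other muscle genes by less, and 2 of 3 adipocyte genes and 3 of 3 Schwann cell genes fell in males, while none of these 9 was called in females, by edgeR, by DESeq2 or at an unadjusted p under 0.05. The part of these cell types in the levels of the S100 genes was not tested.

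**Figure D4:**
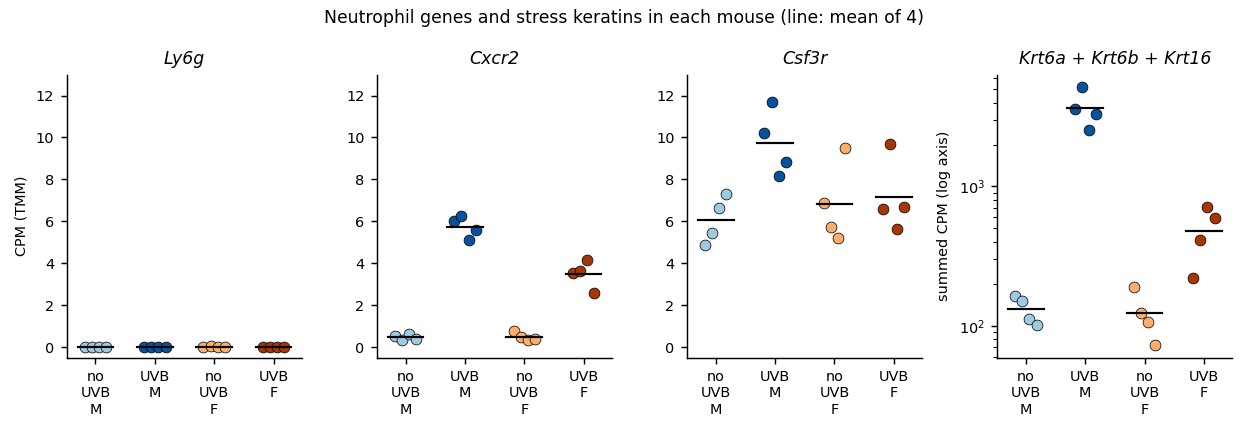
CPM of the neutrophil genes *Ly6g*, *Cxcr2* and *Csf3r* on linear axes and summed CPM of the stress keratins *Krt6a*, *Krt6b* and *Krt16* on a log axis, in each mouse (M, male; F, female); lines are means of 4. *Ly6g* lies at 0 in all irradiated mice, *Cxcr2* lies between 5.12 and 6.25 CPM in UVB males and under 1 CPM in all no-UVB mice, and the stress keratins of UVB males are above those of every other mouse.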

How the data were processed

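The authors prepared strand-specific libraries from polyadenylated RNA of whole skin and aligned the reads to GRCm39 with STAR, per the labels and methods; the STAR version and the annotation release are not given in the sources used here. The deposited values are whole-number counts of reads per gene and mouse, without normalization, for 55359 genes, and list reads that fit several places as 0. Of the 3 counts per gene, the count on the strand of the directional kit was used, since the other strand held 3.63 to 4.23% of gene reads. Between 70.08 and 79.22% of the reads fell on genes, 10.12 to 16.36% were unmapped, 8.3 to 13.69% lay outside genes and 1.17 to 1.34% were ambiguous. Positions and symbols came from GENCODE M39 (54749 identifiers matched, 610 did not, all 9 members did), and counts of mice of a group differed by at least 10.4 times sampling noise (chi-square over its degrees of freedom), so no 2 libraries held the same reads. Groups came from the labels.

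The tests used edgeR 4.0.16 under R 4.3.3 (filterByExpr, TMM, robust quasi-likelihood test, Benjamini-Hochberg adjustment over all genes tested). Each sex's UVB response came from a fit of its own 8 mice, and contrasts between sexes came from a fit of all 16, without covariates. The threshold of 0.1 and the log2 fold change of 1 are those of the methods, whose apeglm shrinkage was an alternative. The log2 ratio of *S100a8* to *S100a9* had 0.5 added to each count and was compared by exact permutation with scipy 1.17.1. Likeness was Pearson's r of log2 CPM (prior count 2). The procedure was tested on simulated data.

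The members, lists and tests were chosen with earlier results of these data known. Genes named in the text are the 9 members, the other S100 genes, *Ager*, *Tlr4*, the 5 genes most like *S100a9* and *S100a6*, and every gene of the other lists that passed the adjusted p of 0.1 and a log2 fold change of 1 in either sex. Other list genes are named for their values or counts, whether or not they were tested or passed, and were chosen after these were seen. The alternatives were counts without regard to strand, DESeq2 size factors or upper quartile scaling in edgeR, the Wald test of DESeq2 1.42.0, apeglm 1.24.0, a filter at 1 count in all or at 10 counts per mouse, the replicate block, all 16 mice in 1 fit, leaving out each mouse, and pseudocounts of 1 and 5 for the ratio. Promoter windows were read from GRCm39, and no protein sequences were used here.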

Additional observations from a re-analysis of the deposited data

Results flagged for a closer look

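Of 36 sets of 4 mice (9 genes in 4 groups), 5 had a mouse whose gap to the next exceeded Dixon's limit of 0.83 of the range, where chance gives about 1 in 20. UVB male replicate 2 stood out with *S100a8* at 59.5 CPM and *S100a9* at 79.9 CPM. No-UVB female replicate 1 stood out with *S100a9* at 2.73 CPM and *S100a4* at 15.2 CPM, and UVB female replicate 2 with *S100a4* at 19.6 CPM.

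The response to UVB was larger in males by a tested interaction for *S100a8* (3.47 on the log2 scale, adjusted p = 0.0333 by edgeR) and *S100a9* (2.24, adjusted p = 0.0545).

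Reads on the strand opposite to *S100a9*, which enter no comparison, numbered 21 over the UVB males, with 1, 16, 1 and 3 in replicates 1 to 4, and 0 in each of the other 12 mice. The 16 reads were in UVB male replicate 2, which also had the most reads on the strand of the gene (1252). Over the 4 UVB males the opposite strand held 0.668% of the reads on *S100a9*, less than the share over all genes in any mouse.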

How the results depend on the processing

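Counts of members kept their size within 1.5 times in all alternatives except the following. With upper quartile scaling 1 member fell in males, *S100a10*, and leaving out 1 mouse at a time gave 0 to 1 (1 without no-UVB male replicate 3). With every gene of at least 1 count the interaction called 1 member higher in males, in place of 2, by the loss of *S100a9* (adjusted p = 0.147), and leaving out 1 mouse gave 1 to 3 higher and 0 to 1 lower. Only 1 was higher without no-UVB female replicate 1, no-UVB male replicate 1 or no-UVB male replicate 2, each time by the loss of *S100a9*. The 1 lower was *S100a10* without no-UVB male replicate 3 (-0.37, adjusted p = 0.0964 by edgeR). The cause was not tested.

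The 3 ratios kept their direction and exact permutation p of 0.0286 without regard to strand and with pseudocounts of 1 and 5. Leaving out 1 mouse gave differences of 0.88 to 1.58 for UVB males against UVB females, -1.03 to -0.68 for UVB in males and -2.66 to -1.95 for UVB in females, each with an exact permutation p of 0.0571, the smallest that 3 mice against 4 allow.

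Signs turned only where a gene was not called. With upper quartile scaling *S100a4* in males was -0.047 and *S100a9* between the unirradiated sexes -0.0073, and with genes of at least 1 count *S100a7a* in females was 0.00036. Leaving out 1 mouse gave ranges across 0 for *S100a4* in males (-0.043 to 0.17), for *S100a4* (-0.15 to 0.19), *S100a6* (-0.14 to 0.054), *S100a7a* (-0.22 to 0.18) and *S100a8* (-0.34 to 0.39) in females, for the interaction of *S100a4* (-0.17 to 0.16), for *S100a14* (-0.19 to 0.011), *S100a4* (-0.018 to 0.22), *S100a8* (-0.29 to 0.12) and *S100a9* (-0.14 to 0.33) between the unirradiated sexes and for *S100a4* between the irradiated sexes (-0.045 to 0.29).

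The replicate numbers gave no clear sign of pairing the mice, although 4 mice per group cannot exclude it. Correlations between same-numbered mice ran from -0.114 to 0.215, and 4 of 16 mice correlated best with their own number. With the replicate block, 6 members rose in males and 4 in females, 2 differed between the sexes in their response, 1 between the unirradiated and 4 between the irradiated sexes, where *S100a11* was lost (adjusted p = 0.112).

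Over all genes, the interaction called 478 genes higher and 740 lower in the males' response, against 229 and 495 with genes of at least 1 count, 1102 and 938 by DESeq2's Wald test and 163 to 835 and 298 to 1020 without 1 mouse. For the sexes without UVB, 1255 were higher and 797 lower, against 762 to 1374 and 430 to 934 without 1 mouse. For the sexes after UVB, 2222 were higher and 2169 lower, against 1434 and 1682 with genes of at least 1 count and 1322 to 2341 and 1469 to 2350 without 1 mouse. Higher calls past 1 numbered 675 in males, against 1124 with genes of at least 1 count, and 275 in females, against 180 with 10 counts in every mouse. The share of calls that were higher was 54.7% in females and 50.6% between the irradiated sexes, against 44.6% and 37.7% with upper quartile scaling, and 39.2% for the interaction, against 51.7% with DESeq2 size factors and 54.0% by DESeq2's Wald test. Depth limits *S100a7a* most, with 13 to 43 reads per mouse.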

Other observations

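*S100a7l2*, a relative of *S100a7a* under the filter on low counts, had 28, 17, 7 and 14 reads in the no-UVB males, 4, 5, 3 and 4 in the UVB males, 0, 1, 0 and 2 in the no-UVB females and 2, 4, 3 and 2 in the UVB females. Reads were highest in the no-UVB males, but their CPM overlapped with that of UVB males (0.303 in no-UVB male replicate 3, 0.319 in UVB male replicate 2), and no test was run. *S100a3*, the S100 gene of the hair cuticle, had 3, 2, 21 and 19 reads in the no-UVB males and 2 to 10 in every other mouse. *S100a2*, chosen after its values were seen, had at most 4 reads in any mouse, and it shares 153 exon bases with *S100a3* on the same strand.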
